A study of Mus musculus with 8 samples.

Results

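Glycolysis splits glucose into pyruvate in the cytosol through a fixed chain of enzymes, and lactate dehydrogenase can then reduce the pyruvate to lactate. The early steps consume ATP and the late steps return it, and the pathway can run without oxygen. Many of its genes are known targets of the hypoxia-inducible factors (HIF), and proliferating cells and neutrophils are both known for heavy use of the pathway. The genes described here were 10 enzyme genes of this chain, chosen by symbol: Hk3, Gpi1, Pfkl, Aldoa, Tpi1, Gapdh, Pgk1, Eno1, Pkm and Ldha. They are 10 of 52550 genes in the tables. A further row with the symbol Aldoa (ENSMUSG00000114515) was listed at 0 in every library and was left out.

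RNA was sequenced from pre-pro-B cells (sorted on surface markers that included AA4.1+ and B220+) and pro-B cells (B220+CD43+IgM-) of C57BL/6J bone marrow. The mice were wild type (WT) or carried a knockout of lactoferrin (Lf-/-), and the WT mice were age-matched littermates with no age given in the labels. The 7 libraries were 2 of WT pre-pro-B, 2 of Lf-/- pre-pro-B, 1 of WT pro-B and 2 of Lf-/- pro-B cells; the remaining WT pro-B sample was not used here. No treatment was given to any group, and each group is described as 3 mice, while the labels give 2 samples and do not say how these relate to the mice, so p-values measure the spread between these libraries.

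The targeted gene Ltf was at 2143 to 2731 FPKM in the 3 WT libraries and at 88.2 to 168 FPKM in the 4 Lf-/- libraries. FPKM is a count of sequenced fragments scaled to transcript length and library size. Marker genes of other cells were high in these sorts. The 18 neutrophil granule markers were all detected and held 25.4% to 53.1% of the summed FPKM of a library, while the 20 early B lineage markers held 0.0535% to 0.124% in WT and 0.272% to 0.49% in Lf-/- libraries. Lf-/- pre-pro-B replicate 2 stood apart, with 12172 genes above 0 against 19477 to 20250 in the others. It had 15.3% of its FPKM in erythroid markers, against 1.93% to 10.3% in the others, while monocyte markers held 0.267% or less, T and NK cell markers 0.168% or less and platelet markers 0.0143% or less in any library. The part of these other cells in the results below was not tested. In such mixtures, fewer cells of a type and less RNA per cell cannot be told apart.

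All 10 genes were above 0 in every library, and together they held 0.115% to 0.236% of the summed FPKM. Replicate 1 of Lf-/- pre-pro-B had the lowest share and replicate 2 the highest, so the libraries of 1 group spanned the range of all 7. By mean level per length, the order was Gapdh, Ldha, Aldoa, Pkm, Eno1, Gpi1, Tpi1, Pgk1, Hk3 and Pfkl. Gapdh ranked highest and Pfkl lowest of the 10 in every library. The ranges of Gapdh and Ldha, of Pgk1 and Hk3, and of Hk3 and Pfkl did not overlap, while all other neighbours in the order overlapped. Aldoa and Pkm were the neighbours that could not be ordered, with Aldoa above Pkm in 3 of 7 libraries. This order is of the FPKM listed under each gene: with the pseudogenes described below added, Eno1, at a mean of 215 FPKM, came directly after Ldha and ahead of Pkm at 189 and Aldoa at 182 FPKM.

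**Figure D1:**
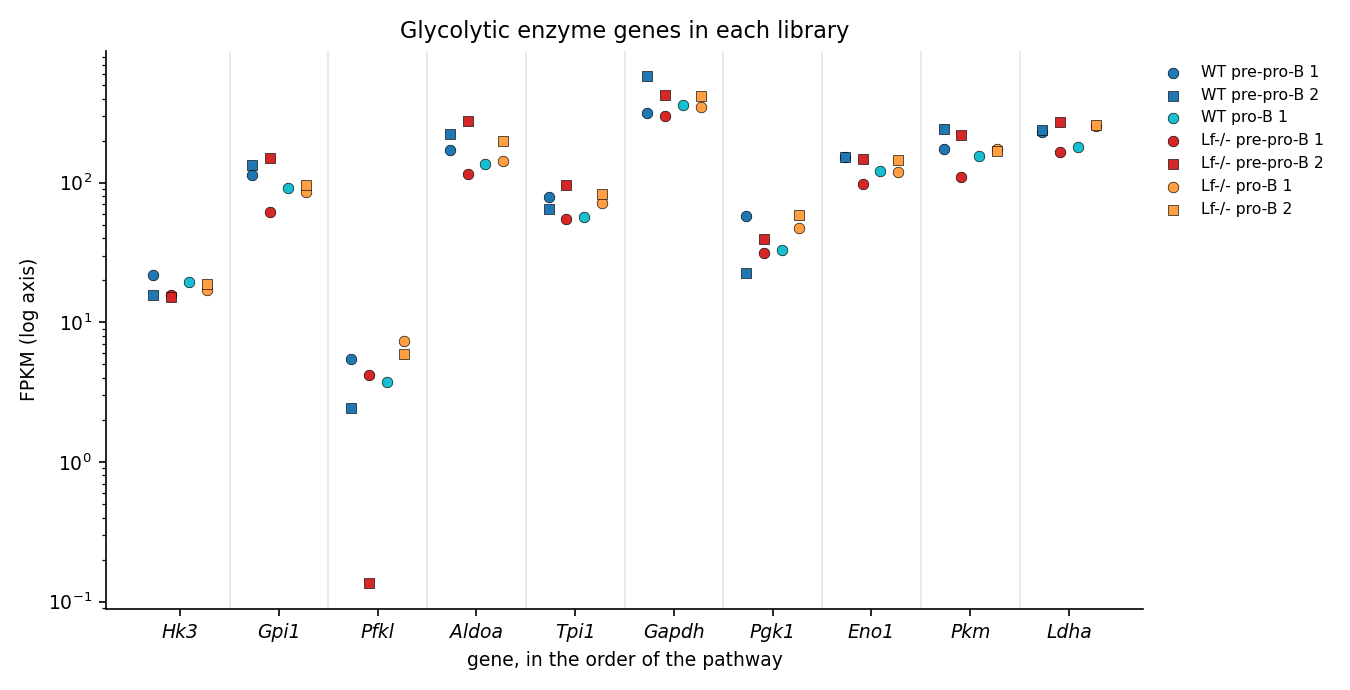
FPKM (log axis) of the 10 glycolytic enzyme genes, in pathway order, with 1 point per library, colours for the 4 groups and marker shapes for the replicate number. The 2 Lf-/- pre-pro-B libraries (red) lie apart for most genes, and Pfkl in Lf-/- pre-pro-B replicate 2 is the lowest point at 0.135 FPKM.

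The first steps trap and prime the sugar. Hk3, the hexokinase typical of blood and myeloid cells (chromosome 13, 55005985 to 55021385, GRCm38), showed 21.8 and 15.6 FPKM across the WT pre-pro-B pair, with 15.6 and 15.3 FPKM in their Lf-/- counterparts, 19.3 FPKM in the WT pro-B library and 17.01 and 18.7 FPKM in its Lf-/- counterparts. The groups overlapped at the pre-pro-B stage, where WT replicate 1 was the high library, and both Lf-/- pro-B libraries were below the WT one. The range of Hk3 across libraries was the narrowest of the 10, at 1.43-fold. Hk3 held 66.0% to 80.5% of the FPKM of the 5 glucose-phosphorylating genes of its family, ahead of Hk2 (1.24 to 7.76 FPKM) and Hk1 (1.38 to 2.58 FPKM). Hkdc1 was listed at 0 in all 7 libraries.

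Gpi1, which isomerises glucose 6-phosphate to fructose 6-phosphate (chromosome 7, 34201330 to 34230336), showed 114 and 134 FPKM across the WT pre-pro-B pair, with 61.4 and 149 FPKM in their Lf-/- counterparts, 90.9 FPKM in the WT pro-B library and 85.9 and 97.0 FPKM in its Lf-/- counterparts. The pair of Lf-/- pre-pro-B libraries lay on either side of both WT libraries, and the Lf-/- pro-B libraries lay on either side of the WT library.

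Pfkl, the liver-type subunit of phosphofructokinase, which catalyses the committed step (chromosome 10, 77986947 to 78010083), had FPKM values of 5.46 and 2.45 for WT pre-pro-B, 4.22 and 0.135 for Lf-/- pre-pro-B, 3.77 for WT pro-B, and 7.31 and 5.91 for Lf-/- pro-B cells. Both Lf-/- pro-B libraries were above every other library, while the pre-pro-B groups overlapped. Pfkl varied 54.2-fold, the widest range of the 10, and this rested on Lf-/- pre-pro-B replicate 2. The muscle-type Pfkm was listed at 0 in that library and at 1.05 to 3.19 FPKM in the others, whereas the platelet-type Pfkp was at 1.54 FPKM there and 1.80 to 4.02 FPKM elsewhere. Pfkl therefore made up 8.04% of the phosphofructokinase FPKM in that library and 46.2% to 51.2% in the other 6.

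Aldolase and triose phosphate isomerase split the sugar and interconvert its products. Aldoa (chromosome 7, 126795234 to 126800751) showed 173 and 224 FPKM across the WT pre-pro-B pair, with 115 and 279 FPKM in their Lf-/- counterparts, 136 FPKM in the WT pro-B library and 142 and 199.8 FPKM in its Lf-/- counterparts, and it supplied at least 99.3% of the aldolase FPKM in every library. Tpi1 (chromosome 6, 124810586 to 124814296) had FPKM values of 79.2 and 64.5 for WT pre-pro-B, 55.4 and 96.8 for Lf-/- pre-pro-B, 57.2 for WT pro-B, and 71.5 and 83.2 for Lf-/- pro-B cells. For both genes the Lf-/- pre-pro-B libraries enclosed the WT pair, and both Lf-/- pro-B libraries were above the WT pro-B library.

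Gapdh and Pgk1 carry out the steps that yield NADH and the first return of ATP. Gapdh (chromosome 6, 125161715 to 125166467) showed 315 and 579.6 FPKM across the WT pre-pro-B pair, with 300.4 and 421 FPKM in their Lf-/- counterparts, 359 FPKM in the WT pro-B library and 349.9 and 416 FPKM in its Lf-/- counterparts. The WT pre-pro-B libraries were the farthest apart, at 447 ± 187 FPKM (SD, n = 2). Pgk1 (chromosome X, 106187100 to 106203699) had FPKM values of 58.2 and 22.5 for WT pre-pro-B, 31.3 and 39.4 for Lf-/- pre-pro-B, 32.9 for WT pro-B, and 47.2 and 59.0 for Lf-/- pro-B cells. For Gapdh the pre-pro-B groups overlapped, with Lf-/- replicate 1 below both WT libraries, and the Lf-/- pro-B libraries lay on either side of the WT one. For Pgk1 the WT pre-pro-B pair enclosed the Lf-/- pair, while both Lf-/- pro-B libraries were above the WT pro-B library.

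The last steps form phosphoenolpyruvate, pyruvate and lactate. Eno1, an enolase (chromosome 4, 150236721 to 150248879), showed 152 and 152 FPKM across the WT pre-pro-B pair, with 98.6 and 148 FPKM in their Lf-/- counterparts, 122 FPKM in the WT pro-B library and 119.8 and 146 FPKM in its Lf-/- counterparts. Pkm, the pyruvate kinase of most tissues outside the liver and red cell (chromosome 9, 59656368 to 59679375), had FPKM values of 175 and 242 for WT pre-pro-B, 110.4 and 219 for Lf-/- pre-pro-B, 156 for WT pro-B, and 174 and 168 for Lf-/- pro-B cells. Eno1 was the only 1 of the 10 whose pre-pro-B groups did not overlap; over all genes tested the groups did not overlap in 33.2%.

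Ldha, the lactate dehydrogenase subunit favoured in glycolytic cells (chromosome 7, 46841475 to 46855627), showed 232 and 237 FPKM across the WT pre-pro-B pair, with 166 and 274 FPKM in their Lf-/- counterparts, 181 FPKM in the WT pro-B library and 256 and 257 FPKM in its Lf-/- counterparts. Both Lf-/- pro-B libraries were above the WT one, and the Lf-/- pre-pro-B pair enclosed the WT pair. Ldha held 80.1% to 89.9% of the lactate dehydrogenase FPKM in 6 libraries and 70.4% in Lf-/- pre-pro-B replicate 2, where Ldhb reached 107 FPKM against 25.3 to 55.6 FPKM in the others. Among the remaining isozymes, Pgam1, the phosphoglycerate mutase between Pgk1 and Eno1, was at 104 to 221 FPKM and Adpgk, an ADP-dependent glucokinase, at 16.7 to 35.3 FPKM. Eno3, Pklr, Pgam2 and Ldhc stayed at 11.6 FPKM or below. Bpgm, which makes the 2,3-bisphosphoglycerate of red cells, reached 60.0 FPKM in Lf-/- pre-pro-B replicate 2, against 3.50 to 14.8 FPKM in the others.

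In pre-pro-B cells, the question was whether the knockout moved these genes. None of the 10 was called by limma at an adjusted p of 0.05, where 0.0% of 9720 genes were called, and none had an unadjusted p under 0.05, where 2.92% of genes did. The lowest adjusted p of the 10 was 0.941. The differences in log2(FPKM + 1), Lf-/- minus WT, ran from -0.96 for Pfkl (SE 0.83) to 0.04 for Tpi1 (SE 0.46). Of the 10, 9 were lower in Lf-/-, against 48.0% of all genes, and their median was -0.25, beside 0.03 over all genes.

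The spread inside the Lf-/- group was larger than this difference. Lf-/- pre-pro-B replicate 1 was below both WT libraries for 7 of the 10, and replicate 2 was above both for 4 of them. For 4 genes the Lf-/- pair enclosed the WT pair, as for 33.8% of all genes. The median gap between the Lf-/- libraries was 0.76 in absolute log2 terms, against 0.42 between the WT libraries, and a median genotype difference of 0.25. Without Lf-/- pre-pro-B replicate 1 the median of the 10 became 0.10 and without replicate 2 it became -0.50. In the first case Pfkl alone was called, at -2.06 (limma, adjusted p = 0.0411), as were 29.4% of all genes tested, and the fit then had a single Lf-/- library that was assumed to vary like the WT pair. The 95% intervals of all 10 differences held 0, and each reached past 1 log2 unit on at least 1 side, the narrowest with a width of 2.11 log2 units, so a 2-fold difference remained inside every interval.

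**Figure D2:**
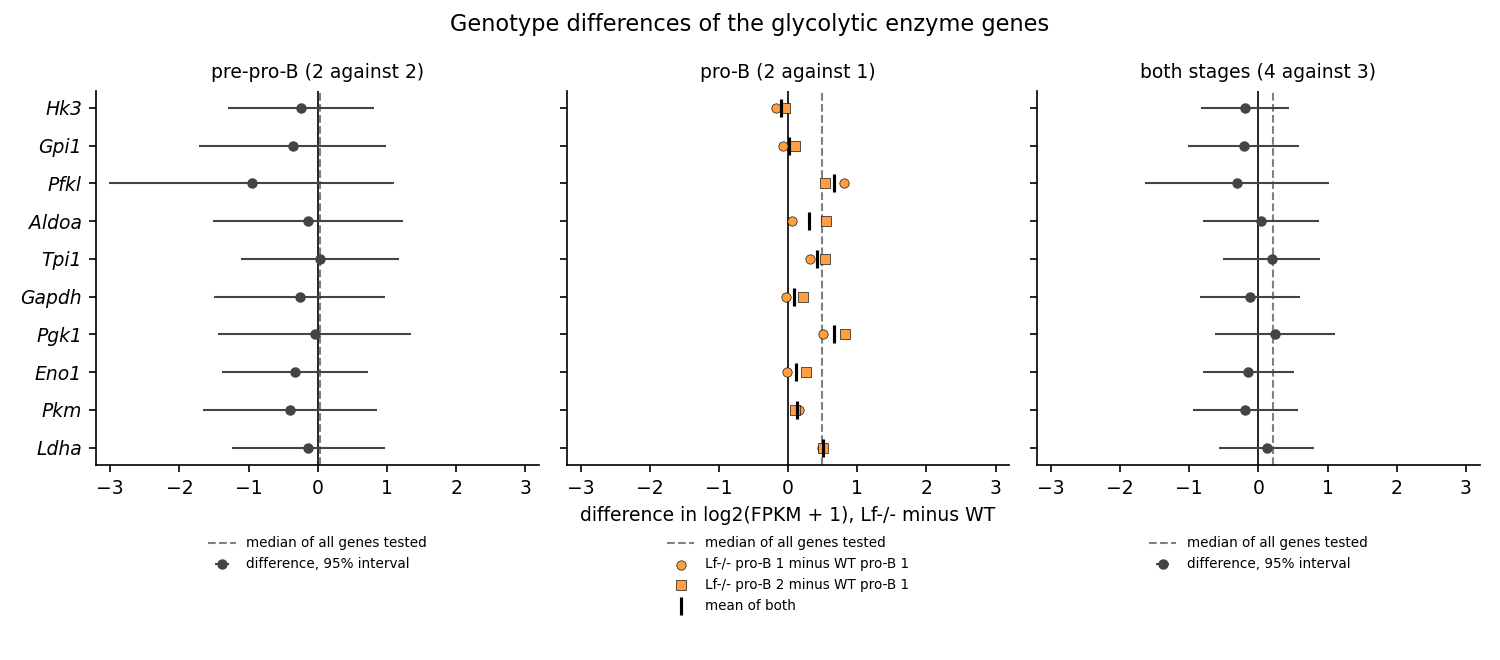
Differences in log2(FPKM + 1), Lf-/- minus WT, of the 10 genes in pre-pro-B cells (left, with 95% intervals), in pro-B cells (middle, each Lf-/- library against the lone WT library, with their mean) and over both stages (right, with 95% intervals). Every interval crosses 0, and the dashed lines mark the median of all genes tested, 0.03, 0.48 and 0.21.

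In pro-B cells the comparison had 1 WT library and no test. None of the 10 was 2-fold apart from it with both Lf-/- libraries on 1 side, against 13.5% of 10793 genes. The largest differences were 0.67 for Pfkl and for Pgk1, then 0.50 for Ldha and 0.42 for Tpi1. Hk3 was the lone gene below 0, at -0.11. Although 9 of 10 were higher in Lf-/-, so were 87.0% of all genes, and both Lf-/- libraries were above the WT library for 6 of the 10, against 75.3% of all genes. The median of the 10 was 0.22, beside 0.48 over all genes, and 3 of the 10 exceeded the latter. This direction rested on scaling: with median-ratio size factors the median of all genes was 0.01, that of the 10 was -0.43 and 2 of them were higher. The WT pro-B library also held the largest share of neutrophil granule markers, at 53.1% of its FPKM against 34.7% and 39.6% in the Lf-/- pro-B libraries, and the part of this in the difference was not tested. After the granule markers were taken out of the library sums, the median of the 10 was -0.02, with 5 higher.

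Over both stages, with stage as a covariate, the 7 libraries gave narrower intervals. The fit assumed 1 genotype difference shared by both stages. Yet the median of the 10 was -0.25 in pre-pro-B cells and 0.22 in pro-B cells. None of the 10 passed an adjusted p of 0.05 with limma, where 0.185% of genes did, and none an unadjusted p under 0.05, where 7.17% did. No gene of the 10 separated WT from Lf-/- libraries without overlap, as 11.0% of all genes did. The differences lay between -0.31 for Pfkl (95% interval -1.64 to 1.03) and 0.24 for Pgk1 (-0.63 to 1.11), with a median of -0.14, beside 0.21 over all genes. For 7 of the 10 the interval lay within 1 log2 unit of 0, so a 2-fold difference shared by both stages lay outside it under this scaling. These intervals do not bear on a 2-fold difference at 1 stage only. Hk3 was at -0.19 (-0.82 to 0.45), Aldoa at 0.04 (-0.80 to 0.88), Tpi1 at 0.19 (-0.51 to 0.89) and Gapdh at -0.12 (-0.85 to 0.60). Eno1 was at -0.15 (-0.80 to 0.51), Pkm at -0.19 (-0.95 to 0.57) and Ldha at 0.12 (-0.57 to 0.80). With median-ratio scaling all 10 were below 0 and Eno1, at -0.51, was the only 1 with an unadjusted limma p under 0.05 (adjusted p = 0.659). The number of intervals within 1 log2 unit was 5 with median-ratio scaling, 6 with the granule markers left out of the library sums, 6 with pseudogenes added (Gapdh then reached -1.21), and 1 to 8 with a library left out, the 1 being without the WT pro-B library. Without Lf-/- pre-pro-B replicate 1, 8 of 10 were above 0 and the median was 0.12.

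The stage comparison was possible in Lf-/- cells, where pro-B was set against pre-pro-B. None of the 10 passed with limma, adjusted (0.0% of 10311 genes) or unadjusted (3.4%). The difference farthest from 0 was 1.64 for Pfkl (SE 0.78), followed by 0.57 for Pgk1. Pfkl, Pgk1 and Hk3 were higher in both pro-B libraries than in both pre-pro-B libraries, and such groups without overlap made up 31.1% of all genes. In all, 8 of 10 were higher in pro-B, against 60.4% of genes, with a median of 0.13 beside 0.14 over all genes; without the granule markers in the library sums all 10 were higher. The Pfkl difference was 2.74 without Lf-/- pre-pro-B replicate 1 (limma, adjusted p = 0.00817), a fit in which 22.6% of all genes were called and the lone pre-pro-B library was assumed to vary like the pro-B pair. It was 0.54 without replicate 2. Whether the genotype difference itself varied with stage was tested as an interaction, and the lowest adjusted p of the 10 was 0.990 (limma), with Pfkl the farthest from 0 at 1.62 log2 units. This does not show that the genotype difference was the same at both stages.

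Near-identical copies elsewhere in the genome bear most on the levels of 3 of these genes. A processed pseudogene is a copy of a spliced transcript put back into the genome, and it can match its parent too closely for a short read to tell them apart. In the main transcript of each gene, the share of 100-base windows that occur letter for letter in transcripts of other genes was 78.0% for Gapdh, 67.0% for Pgk1 and 59.0% for Eno1. It was 9.82% for Pkm, 7.40% for Gpi1, 1.32% for Ldha, 0.80% for Tpi1 and 0.0% for Hk3, Pfkl and Aldoa. These shares depend on the window length. With 50-base windows they were 34.4% for Pkm, 25.3% for Gpi1, 17.1% for Ldha, 13.9% for Aldoa and 7.51% for Tpi1.

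The files list 173 processed pseudogenes that match Gapdh, of which 63 reached 1 FPKM in some library, and their summed FPKM exceeded that of Gapdh in every library. The sum had FPKM values of 709 and 772 for WT pre-pro-B, 349.7 and 505 for Lf-/- pre-pro-B, 814 for WT pro-B, and 376 and 579 for Lf-/- pro-B cells. For Eno1, the pseudogene Gm4735 was at 60.6 to 98.2 FPKM and the coding copy Eno1b at 29.0 to 48.2 FPKM. For Pgk1, the pseudogenes held 34.4% to 44.8% of the total, led by Pgk1-rs7 at 7.19 to 21.2 FPKM, whose 1253 aligned coding bases were all identical to Pgk1. The leading copies of the others stayed low next to their parents: Gm1840 of Gpi1 was at 6.01 to 12.7 FPKM, Gm6560 of Pkm at 5.86 to 16.1, Tpi-rs11 of Tpi1 at 1.33 to 3.08, Ldha-ps2 of Ldha at 0.58 to 1.51 and Gm5276 of Aldoa at 0.273 to 0.866 FPKM. The levels of Gapdh, Pgk1 and Eno1 are therefore uncertain, as the handling of reads with several matches is not given in the sources used here.

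The Gapdh copy with the highest mean level separated the libraries by genotype. This copy, Gm13394, a processed pseudogene inside an intron of Cfap77 on the same strand (chromosome 2, 28933610 to 28934609, GRCm38), showed 269.9 and 123 FPKM across the WT pre-pro-B pair, with 55.3 and 75.9 FPKM in their Lf-/- counterparts, 335 FPKM in the WT pro-B library and 62.4 and 72.2 FPKM in its Lf-/- counterparts. All 4 Lf-/- libraries were below all 3 WT libraries, which was the case in either direction for 11.0% of all genes. Gm13394 was picked by its mean, which the WT values of 269.9 and 335 FPKM raised, so the choice itself favoured a genotype difference. By median over the 7 libraries another Gapdh copy, Gm12033, was higher, at 80.6 against 75.9 FPKM. Over both stages the difference was -1.81 (SE 0.37; limma, adjusted p = 0.152), which did not pass, and in pro-B cells it was -2.30, past 2-fold. The adjusted p in limma was 0.0392 when only genes at 1 FPKM or more in every library were tested and 0.0389 without Lf-/- pre-pro-B replicate 2, and over all alternatives it ran from 0.0389 to 0.792, the highest without the WT pro-B library. The host gene Cfap77 was at 0.141 FPKM or below.

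The ratio of the copy to its parent varied within WT. Gm13394 stood at 85.6% of the Gapdh value in WT pre-pro-B replicate 1 and 93.2% in WT pro-B, but at 21.2% in WT pre-pro-B replicate 2 and at 17.4% to 18.4% in the 4 Lf-/- libraries. The next copies by mean level, Gm12033 and Gm5559, kept to 16.6% to 26.9% and 14.6% to 21.6% of Gapdh. Gm13394 differs from the Gapdh coding sequence at 1 of 1000 aligned bases, A346C, counted from the first base of the Gapdh start codon with the Gapdh base first. The windows below show that base in capitals within its 41-base neighbourhood (Gapdh at chr6:125162996-125163036, minus strand, coding exon, GRCm38, GENCODE M21 transcripts), since it is what a read must cover to tell the copies apart in the coding part. The Gapdh version occurs in transcripts of 53 genes and the Gm13394 version in 1. The difference of Gm5559 is T385A (Gapdh at chr6:125162957-125162997).
Gapdh at 346: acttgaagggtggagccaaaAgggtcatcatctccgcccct
Gm13394: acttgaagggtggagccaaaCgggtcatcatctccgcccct
Gapdh at 385: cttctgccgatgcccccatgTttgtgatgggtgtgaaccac
Gm5559: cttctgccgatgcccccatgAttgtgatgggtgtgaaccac

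Adding the pseudogene values to their parents moved Gapdh most. Its genotype difference over both stages became -0.55 in place of -0.12 (limma, adjusted p = 0.688), and in pro-B cells -0.46 in place of 0.09, while the call did not change. Pgk1 over both stages became 0.19 in place of 0.24, and Eno1 -0.16 in place of -0.15. The summed Gapdh family held 1024, 1352 and 1173 FPKM in the 3 WT libraries and 650.1, 927, 726 and 995 FPKM in the 4 Lf-/- libraries, with every WT library above every Lf-/- library. Such a lack of overlap was seen in 11.0% of all genes. Without Gm13394 the sums were 754, 1229 and 838 FPKM in WT and 595, 851, 663 and 923 FPKM in Lf-/- libraries, which overlapped.

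**Figure D3:**
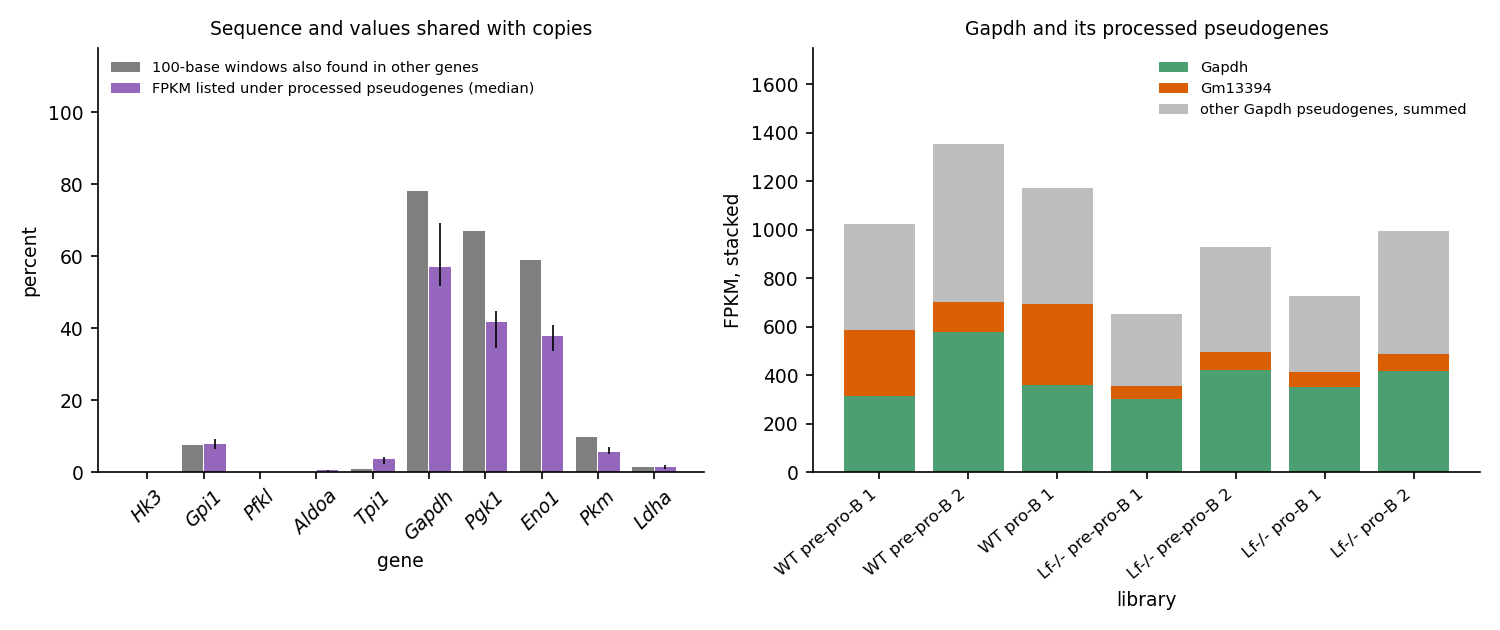
Left, for each gene, the percent of 100-base windows of its main transcript that also occur in other genes (grey) and the percent of the FPKM of gene and pseudogenes that is listed under pseudogenes (purple, median of 7 libraries with the lowest and highest). Right, stacked FPKM of Gapdh, Gm13394 and the other 172 Gapdh pseudogenes in each library, where Gm13394 takes 269.9 FPKM in WT pre-pro-B replicate 1 and 335 FPKM in WT pro-B.

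Some of the 10 ran in parallel across libraries, and 5 of them were picked out after their values were seen. Over the 7 libraries, which share their scaling between all genes, the Pearson correlations of log2(FPKM + 1) among Gpi1, Aldoa, Eno1, Pkm and Ldha were 0.72 to 0.94 in 10 pairs, and 0.63 to 0.94 without Lf-/- pre-pro-B replicate 2. Pfkl was negatively correlated with 7 of the 9 others and Hk3 with 5 of 9, but without that library the counts were 5 and 1. Of 6659 genes at 1 FPKM or more in every library, those most like the mean of the 10 were Higd1a (r = 0.99), Kmt5a (0.97), Pgm1 (0.96), Rps24-ps3 (0.95) and Adk (0.95). Higd1a, a mitochondrial protein known to be induced by hypoxia, was lowest in Lf-/- pre-pro-B replicate 1, at 7.97 FPKM, and at 12.4 to 19.7 FPKM in the others. The genes most like Hk3 were Wipi1 (r = 0.94), Rpl39-ps (0.94), Klf7 (0.91), Car2 (0.91) and Tkt (0.91). Both lists hold the highest of 6659 correlations over 7 libraries, so the size of r cannot be read as support for a link. A link to hypoxia was not tested.

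Because HIF acts on many glycolytic promoters through a short core, the letters of that core were searched in the 250 bases before each annotated start (RefSeq, GRCm38.p6; all 10 genes matched, with 16 starts). The motifs were ACGTG and GCGTG on both strands; ACGTG is also part of the E-box CACGTG, where it reads on both strands at once. At least 1 of them was present in 12 of the 16 windows. Over all 32851 promoter windows, 38.6% held either, 16.6% ACGTG, 28.2% GCGTG and 6.02% the E-box. By gene, 8 of the 10 had a match, all but Gpi1 and Tpi1, and no share over all genes was computed for this count. Windows of 1 gene overlapped here. Aldoa windows 1 and 2 held the same site, and Eno1 windows 2 and 3 held the same sites, so the 12 windows are not separate cases. One start of Ldha held the E-box at 2 places and a further ACGTG, and the Pgk1 start held ACGTG at 2 places. The windows below are shown for Ldha, Pgk1, Aldoa and Pkm, with the matched letters in capitals, written along the gene's strand. A match gives the letters only, with no measure of binding.
Ldha, chr7:46845648-46845676: gtgtcgcagcacACGTGgagccactcttg
Ldha, chr7:46845745-46845773: ggcccagcctacACGTGggttcccgcacg
Pgk1, chrX:106186938-106186966: gcgtcgtgcaggACGTGacaaatggaagt
Aldoa, chr7:126799364-126799392: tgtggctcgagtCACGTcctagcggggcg
Pkm, chr9:59657140-59657168: ctccgatccggtCACGTccgcgccgcagc

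The surrounding pathways gave no gene past an adjusted p of 0.05 in pre-pro-B cells or over both stages with limma. Of the 9 genes of the HIF pathway, 4 were tested in pre-pro-B cells, with a median of -0.54, and 5 in pro-B cells, with a median of 0.41, below the 0.48 over all genes. Hif1a, the oxygen-regulated subunit, was at 1.78 to 2.83 FPKM in 6 libraries and only 0.193 FPKM in Lf-/- pre-pro-B replicate 2, and Vhl, which marks it for destruction, at 1.15 FPKM in that library and 2.64 to 5.50 FPKM elsewhere. In pro-B cells Egln2 and Egln1, oxygen-sensing prolyl hydroxylases, were 0.87 and 0.56 higher in the Lf-/- mean. Egln1 reached 1 FPKM only in the Lf-/- pro-B libraries, at 1.56 and 1.20 FPKM, beside 0.612 FPKM in WT pro-B. It thus passed the filter only through the group where it was high, so its direction is no result.

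Of the 20 other hypoxia targets, 15 were tested at the pre-pro-B stage and 16 at the pro-B stage, with medians of -0.23 and 0.47 beside 0.03 and 0.48 over all genes. Ankrd37 had FPKM values of 0.575 and 0.241 for WT pre-pro-B, 1.26 and 14.3 for Lf-/- pre-pro-B, 0.180 for WT pro-B, and 3.64 and 2.50 for Lf-/- pro-B cells, a difference over both stages of 1.95 (limma, adjusted p = 0.426). Every Lf-/- library was above every WT library for this gene, and 11.0% of all genes had no overlap in either direction. Ankrd37 was under 1 FPKM in every WT library, so it passed the filter only through the Lf-/- libraries. Its separation and differences therefore cannot be read as support for a genotype difference. Car9, a carbonic anhydrase, was -1.48 in pre-pro-B cells (limma, adjusted p = 0.941) and listed at 0 in Lf-/- pre-pro-B replicate 2. In pro-B cells 3 targets, Ankrd37 (1.77), Adm (1.57) and Hilpda (1.03), were at least 2-fold higher in Lf-/- and none was 2-fold lower. Over all genes, 12.4% were at least 2-fold higher with both Lf-/- libraries above the WT one. Adm was under 1 FPKM in every WT library except pre-pro-B replicate 1, so it too needed Lf-/- libraries to pass the filter. Its pro-B difference rested mostly on Lf-/- replicate 1 (6.71 FPKM), since replicate 2 stayed under 1 FPKM. The directions of Ankrd37 and Adm are therefore no result, which leaves Hilpda.

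Of 10 glucose and lactate transporters, 7 were tested, and all 7 were higher in the Lf-/- pro-B mean, as were 87.0% of all genes, with a median of 0.70 beside 0.48 over all genes. Slc2a1, the main glucose carrier, showed 2.56 FPKM in the WT pro-B library and 7.69 and 4.50 FPKM in its Lf-/- counterparts, a difference of 0.96, and Slc2a6 was 1.45 higher. Slc16a3, the lactate exporter, was at -0.77 in pre-pro-B cells, with both Lf-/- libraries below both WT libraries. Slc2a1 was at -0.42 there, which rested on Lf-/- pre-pro-B replicate 2 alone, at 0.275 FPKM. Replicate 1 held 3.196 FPKM of Slc2a1 and was above both WT libraries, which held 2.37 and 1.84 FPKM. Among the 6 flux regulators tested, Pdk2 was 1.55 and Pfkfb4 -1.29 in pre-pro-B cells. Both differences rested mostly on Lf-/- pre-pro-B replicate 2. Pdk2 was at 2.61 and 15.7 FPKM in Lf-/- replicates 1 and 2, and at 1.96 and 1.39 FPKM in WT. Pfkfb4 was at 2.60 and 0 FPKM, and at 3.32 and 3.96 FPKM in WT. Pfkfb4 thus passed the filter there only with the WT libraries, where it was higher, so its direction is no result. In pro-B cells Pdk2 and Pdk3, kinases that hold back pyruvate dehydrogenase, were at 0.86 and 0.85.

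All 20 genes of pyruvate dehydrogenase and the TCA cycle were tested, with a median of 0.13 at the pre-pro-B stage and 0.61 at the pro-B stage, and all 20 were higher in the Lf-/- pro-B mean, again beside 87.0% of all genes. The named members were Sdha (-1.41) and Idh3g (0.73) in pre-pro-B cells and Sucla2 (1.03) and Sdhb (0.93) in pro-B cells. The pre-pro-B differences rested mostly on Lf-/- pre-pro-B replicate 2. Sdha was at 24.9 and 1.19 FPKM in Lf-/- replicates 1 and 2, and at 33.7 and 10.5 FPKM in WT. Idh3g was at 48.7 and 155 FPKM, and at 52.2 and 51.9 FPKM in WT. In the pentose phosphate pathway 7 of 8 genes were tested. G6pdx, its entry enzyme, held 101 and 105 FPKM across the WT pre-pro-B pair, against 52.4 and 44.7 FPKM in their Lf-/- counterparts, a difference of -1.07 (limma, adjusted p = 0.941), and was 0.49 higher in Lf-/- pro-B; H6pd was at -0.76 at the earlier stage, Pgls at 0.57 at the later. Of 17 genes of gluconeogenesis and glycogen, 10 were tested, with medians of -0.66 and 0.23. These included G6pc3 (-1.48) and Ugp2 (-1.13) in pre-pro-B and Pck2 (0.59) and Pygb (0.58) in pro-B cells. G6pc3 was at 13.9 and 1.61 FPKM in Lf-/- pre-pro-B replicates 1 and 2, and at 14.8 and 18.2 FPKM in WT. Ugp2 was at 5.84 and 2.27 FPKM, and at 8.45 and 10.3 FPKM in WT. Of the 19 other glycolytic isozymes, 12 were tested, with medians of -0.08 and 0.25. The widest differences were Bpgm (1.30) and Eno3 (0.92) at the pre-pro-B stage, and Bpgm (1.30) and Pgam2 (0.80) at the pro-B stage. In Lf-/- pre-pro-B replicates 1 and 2, Bpgm was at 4.95 and 60.0 FPKM and Eno3 at 2.71 and 11.6 FPKM.

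**Figure D4:**
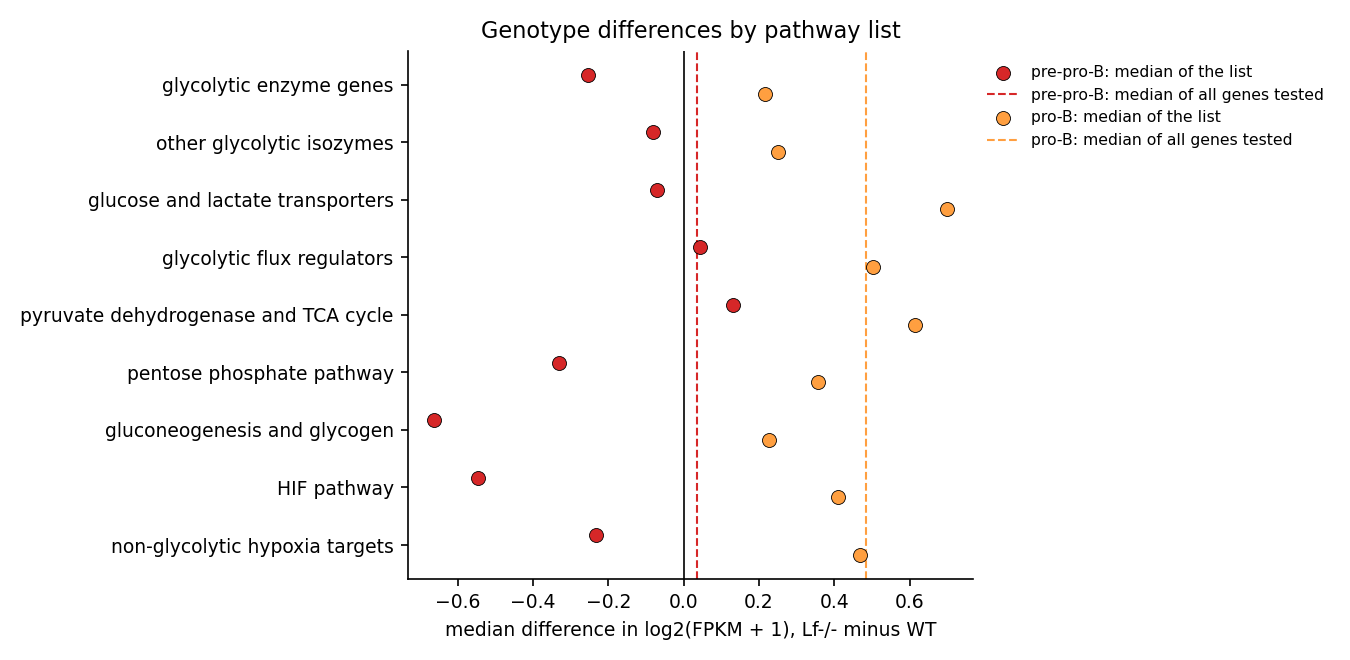
Median difference in log2(FPKM + 1), Lf-/- minus WT, of each pathway list in pre-pro-B (red) and pro-B cells (orange); dashed lines give the median of all genes tested, 0.03 and 0.48. The glycolytic enzyme genes lie at -0.25 and 0.22, below the line of their stage in both.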

How the data were processed

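RNA from sorted pre-pro-B and pro-B cells of WT and Lf-/- mice was sequenced on a NovaSeq instrument. The authors deposited 1 table per library with an FPKM value per gene. The labels' processing notes name TopHat, Cufflinks and HTSeq and the build GRCm38, with no versions or roles. In 6 libraries the values fell on even steps, which gave 10800000 to 15300000 fragments; for Lf-/- pre-pro-B replicate 2 no depth could be had. Identifiers were looked up in GENCODE M21.

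Values were analysed as log2(FPKM + 1), a scale that understates changes of low genes. A gene was tested where 2 or more libraries reached 1 FPKM. The tests were two-sided moderated tests of limma 3.58.1 (R 4.3.3, variance trended on the mean), adjusted by Benjamini-Hochberg over all genes tested. The fits were also run on simulated data with known changes. Detection after adjustment was required there only at a small set spread, not at that of these libraries. The simulation therefore does not show how many real changes the tests would find here. With a lone WT pro-B library, the pro-B genotype differences are described without a test. Pseudogenes were transcripts that match a member over at least 200 bases at 90% identity (blastn 2.17.0). The members, lists and tests were chosen with earlier results of these data known. Named were the 10 members, the 2 genes of each list with the widest difference at each stage, the detected isozymes by range, the 5 genes most correlated with the members' mean and with Hk3, and the pseudogene with the highest mean for each member. Gm12033, Gm5559, Eno1b, Hkdc1 and Hilpda were chosen after their values were seen. Alternatives were other scalings, filters and pseudocount, copies added to their parents (coding copies after seeing the data), a replicate block, 1 fit of all libraries, and each library left out. Python 3.11.15 was used for the remaining steps.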

Additional observations from a re-analysis of the deposited data

How the results depend on the processing

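The median genotype difference of the 10 genes kept its sign in pre-pro-B cells (-0.42 to -0.24) and over both stages (-0.50 to -0.12) under every alternative with all libraries, and the stage median stayed between 0.05 and 0.30. In pro-B cells it was 0.22, but -0.43 with median-ratio scaling, -0.0178 without the granule markers in the library sum and -0.0673 with quantile normalization. Members at an unadjusted limma p under 0.05 numbered 1 over both stages with median-ratio scaling (Eno1) and 1 for stage with the replicate block (Pfkl, 1.64). The causes were not tested. Leaving out 1 library at a time gave medians from -0.50 to 0.10 in pre-pro-B cells, 0.11 to 0.38 in pro-B cells, -0.25 to 0.12 over both stages and -0.15 to 0.55 for stage, with 0 to 1 members called. The call was Pfkl in pre-pro-B cells and for stage, both without Lf-/- pre-pro-B replicate 1, where 2856 (29.4%) and 2329 (22.6%) of all genes were called.

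Signs of small differences turned as follows. In pro-B cells, with 1 Lf-/- library left out at a time, Gpi1 ran over -0.0796 to 0.0932, Gapdh over -0.0374 to 0.211 and Eno1 over -0.0209 to 0.264; 2 of 10 were higher with median-ratio scaling, 3 with quantile normalization, 5 with the granule markers left out and 7 with pseudogenes added, against 9. In pre-pro-B cells Aldoa was 0.0136 with quantile normalization, and Tpi1 -0.14 with median-ratio scaling and -0.0769 without the granule markers. Over both stages median-ratio scaling gave Aldoa -0.32, Tpi1 -0.17, Pgk1 -0.11 and Ldha -0.24, leaving out the granule markers gave Aldoa -0.12 and Ldha -0.0442, quantile normalization gave Pgk1 -0.0619, and the replicate block gave Aldoa -0.105. For stage, leaving out the granule markers gave Gpi1 0.0994 and Aldoa 0.0869, and median-ratio scaling gave Tpi1 -0.00387. With 1 library left out at a time, the members whose sign turned in pre-pro-B cells ran over Gpi1 -0.997 to 0.272, Pfkl -2.06 to 0.145, Aldoa -0.775 to 0.50, Tpi1 -0.362 to 0.433, Gapdh -0.703 to 0.173, Pgk1 -0.711 to 0.62, Pkm -0.895 to 0.0892 and Ldha -0.497 to 0.221. With 1 library left out at a time, the members whose sign turned over both stages ran over Gpi1 -0.495 to 0.139, Pfkl -0.956 to 0.407, Aldoa -0.235 to 0.402, Gapdh -0.308 to 0.13, Pgk1 -0.0456 to 0.643, Eno1 -0.326 to 0.0439, Pkm -0.403 to 0.109 and Ldha -0.138 to 0.361. With 1 library left out at a time, the members whose sign turned for stage ran over Gpi1 -0.704 to 0.565, Aldoa -0.72 to 0.555, Tpi1 -0.324 to 0.471, Gapdh -0.143 to 0.344, Eno1 -0.163 to 0.421, Pkm -0.359 to 0.626 and Ldha -0.0942 to 0.624.

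Counts over all genes moved more. In pre-pro-B cells the 284 genes at an unadjusted p under 0.05 became 441 with quantile normalization, 649 without a filter, 532 with the replicate block and 528 with all 7 libraries, and the 0 adjusted calls became 65 with the block. In pro-B cells the 1462 became 823 with median-ratio scaling, 753 with quantile normalization, 2853 with a pseudocount of 0.1 and 0 by limma in the fit of all libraries, where 467 had an unadjusted p under 0.05. Over both stages the 20 adjusted calls became 7, 11, 11, 0, 63 and 9 with median-ratio scaling, granule markers left out, quantile normalization, no filter, the strict filter and the lower pseudocount. For stage, the 351 at an unadjusted p became 564, 746, 143, 171, 701 and 618 with granule markers left out, no filter, the strict filter, the lower pseudocount, the block and all libraries, and the 0 adjusted calls became 84 with the block. Same-numbered libraries did not deviate together (r = 0.0393, 0.0532 and -0.0127 across 10793 genes), so the replicate block pairs them by number only. Under the strict filter Pfkl was not tested in the fits that hold Lf-/- pre-pro-B replicate 2.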
